A study of Mus musculus with 18 samples.

Results

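Nucleotide excision repair (NER) removes the bulky lesions that ultraviolet light leaves in DNA, and the mRNA levels of 33 NER genes were followed here from irradiated mouse skin to papilloma and carcinoma. The genes were taken by symbol as known NER genes by a rule that uses no measured value, though with earlier results of these data known, and all 33 were found among the 14521 named genes of the deposited table. Samples came from 6 female littermates of SKH-1E, an outbred hairless mouse strain prone to ultraviolet-induced skin tumours, which were chronically exposed to solar simulators and killed some time after the last exposure. Each mouse (numbered 2, 3, 7, 8, 9 and 10) gave 3 samples, so that there were 18 libraries with n = 6 in each group. Nonlesional, chronically UV-exposed skin is called CHR, papilloma, a benign tumour of the epidermis, PAP, and cutaneous squamous cell carcinoma SCC. All groups shared the hairless background and the irradiation, and no unirradiated skin was analysed, so the comparisons address change between stages and not the response to ultraviolet light itself. CHR is whole skin with all its cell types, whereas the lesions had been judged by histology to be mostly tumour.

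NER proceeds through fixed roles. In global genome repair, XPC with RAD23B and CETN2 senses helix distortion, and DDB1 with DDB2, built into a ubiquitin ligase with CUL4A or CUL4B and RBX1, finds the ultraviolet photoproducts that XPC binds poorly. In transcription-coupled repair, a stalled RNA polymerase is recognised by the proteins encoded by Ercc6 (CSB) and Ercc8 (CSA) with UVSSA, USP7 and XAB2. Both branches recruit TFIIH, whose helicases open the DNA, XPA and replication protein A (RPA) verify and hold the open strand, the nucleases ERCC1-ERCC4 (XPF) and ERCC5 (XPG) cut on either side of the lesion, and polymerases fill the gap. In people, inherited loss of several of these genes causes xeroderma pigmentosum, with skin cancer on sun-exposed sites, and loss of CSA or CSB causes Cockayne syndrome.

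Sequences upstream of the start site are shown for the 3 called members that rose most in papillomas and for the 1 that fell. Ercc1 was left out, since its window overlaps an annotated exon by more bases than those shown. They are 250 bases before the RefSeq start, in GRCm38.p6, written 5′ to 3′ on the strand of the gene, with capitals marking every match to a searched motif.
Gtf2h1 (chr7:46795844-46796093, plus strand): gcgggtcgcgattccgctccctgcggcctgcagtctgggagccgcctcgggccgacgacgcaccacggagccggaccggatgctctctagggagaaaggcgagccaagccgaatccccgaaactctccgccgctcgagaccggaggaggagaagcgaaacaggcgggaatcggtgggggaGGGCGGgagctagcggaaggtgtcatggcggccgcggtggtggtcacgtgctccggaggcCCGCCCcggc
Polh (chr17:46202642-46202891, minus strand): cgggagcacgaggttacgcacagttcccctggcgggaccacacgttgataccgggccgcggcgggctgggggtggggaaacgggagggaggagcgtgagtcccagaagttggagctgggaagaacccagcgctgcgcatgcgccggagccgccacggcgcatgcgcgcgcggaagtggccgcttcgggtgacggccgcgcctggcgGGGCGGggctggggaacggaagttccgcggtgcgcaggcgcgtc
Gtf2h3 (chr5:124578898-124579147, plus strand): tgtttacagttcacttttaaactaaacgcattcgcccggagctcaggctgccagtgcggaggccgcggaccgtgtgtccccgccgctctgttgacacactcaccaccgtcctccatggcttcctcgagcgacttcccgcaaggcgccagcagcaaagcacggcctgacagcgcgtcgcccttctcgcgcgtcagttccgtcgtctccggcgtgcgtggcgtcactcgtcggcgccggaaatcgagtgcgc
Ercc6 (chr14:32513271-32513520, plus strand): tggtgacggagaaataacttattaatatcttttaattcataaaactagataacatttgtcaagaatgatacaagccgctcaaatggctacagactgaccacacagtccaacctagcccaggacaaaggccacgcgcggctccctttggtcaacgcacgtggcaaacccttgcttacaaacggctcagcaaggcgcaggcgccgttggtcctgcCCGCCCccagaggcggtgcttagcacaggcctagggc
The motifs searched, on both strands, were E2F (TTTNGCG or TTTCCCG), NF-Y (CCAAT), ETS (CCGGAAG) and SP1 (GGGCGG). Gtf2h1 held 2 SP1 matches, Polh and Ercc6 held 1 each, and none of the searched letters occurred in the window of Gtf2h3. Of the 28 members with a RefSeq window, Ercc1 included, 7 (25.0%) held an E2F match, compared with 9.63% of the 10745 windows of tested genes. An NF-Y match was present in 15 members (53.6%, against 35.6% of all windows), an ETS match in 5 (17.9%, against 12.5%) and an SP1 match in 19 (67.9%, against 56.2%). The E2F holders were Ercc5, Rpa1, Rpa3, Mnat1, Gtf2h2, Rbx1 and Cul4b. No window was available for Xpc, Ddb2, Ercc3, Ccnh and Cops5, and these matches are letters in a window, not binding sites.

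Library depth was 15.4 to 20.97 M recovered reads (median 18.9 M). The cell makeup of the samples differed by group. Summed over 8 proliferation markers, levels were 9401 to 13668 normalised reads in CHR, 28638 to 44640 in PAP and 20100 to 34260 in SCC, and all 8 rose in both lesions compared with CHR. Summed over 5 basal keratinocyte markers, CHR held 124560 to 218173 and PAP 395890 to 694037, and 5 of 5 rose. In SCC the keratinocyte sum was 141545 to 478682, and 4 of 5 rose against CHR. Skeletal muscle markers summed to 342863 to 517558 in CHR, 88.1 to 25526 in PAP and 198 to 171534 in SCC, with 5 of 5 lower in PAP and 4 of 5 lower in SCC. All 5 adipocyte and all 5 sebaceous markers, 4 of 5 macrophage markers and 4 of 4 T cell markers found in the table also fell in both lesions. Of 6 fibroblast markers, 4 fell in PAP and 1 in SCC. Their sum was 132863 to 298851 in CHR (median 207666), 4777 to 160351 in PAP (median 54839) and 17028 to 492899 in SCC (median 227509). No adipocyte marker was above 0 in every library. Fewer cells of a type and less RNA per cell cannot be told apart in such bulk samples.

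The NER genes called in papillomas were, with 1 exception, higher than in the irradiated skin. In PAP vs CHR, 16 of 33 members rose and 1, Ercc6, fell, while 16 were not called. A member was called at a limma adjusted p under 0.05 over all 14521 genes. Over all genes, 51.5% were called in this comparison, 22.8% higher and 28.7% lower. The members' share called in either direction was thus the same, 51.5%, with 48.5% of members higher and 3.0% lower. The median log2 fold change, a difference between group means of log2(deposited value + 1), was 0.26 over the members and 0.00 over all genes, and 31 of 33 members were above 0. All 6 values in PAP lay above all 6 in CHR for 13 members (14.4% of all genes did so) and below them for 1 (19.2% of all genes). In single mice, 25 to 29 of the 33 members were higher in the papilloma than in the same animal's skin, with a median difference of 0.23 to 0.44, compared with -0.03 to 0.00 over all genes.

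In carcinomas the share of members called again lay at that of all genes. In SCC vs CHR, where 36.5% of all genes were called, 11 members rose (15.1% of all genes did), Ercc6 fell (21.4% of all genes did) and 21 were not called (36.4% called in all, 33.3% higher), with a median log2 fold change of 0.22 against -0.02 over all genes. The groups were separate for 5 members that were higher (8.49% of all genes), namely Ddb1, Ercc1, Gtf2h1, Rpa1 and Polh, and for Ercc6 (11.2% of all genes were separate and lower). Medians within mice ran from 0.04 in mouse 7 to 0.38 in mouse 3. Leaving out mouse 3 gave the lowest count, with 8 members called in SCC vs CHR and 15 in PAP vs CHR. Without mouse 3 the share of all genes called was lower as well, at 28.7% and 46.3%.

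Between the lesions, no member was called without the replicate block, and Polh alone with it (lower, limma adjusted p = 0.0497). In SCC vs PAP limma called 5.58% of all genes, 4.99% higher and 0.592% lower, but 0 of 33 members, with 4 members at an unadjusted p under 0.05, and limma-voom on recovered reads called 0 members, with 3 at an unadjusted p under 0.05, but also 0 of all genes. The 810 calls over all genes in this comparison became 1430 (9.85%) with the block, 2123 (14.6%) without mouse 10 and 0 without mouse 3, 7 or 8 or with the compared groups alone, so the 0 members are not a result about the members. The median log2 difference was -0.10 (all genes -0.02), 6 of 33 members were above 0, and every member overlapped between the lesions. The 3 comparisons share libraries, since CHR serves PAP and SCC alike, so their counts are not independent of each other.

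**Figure D1:**
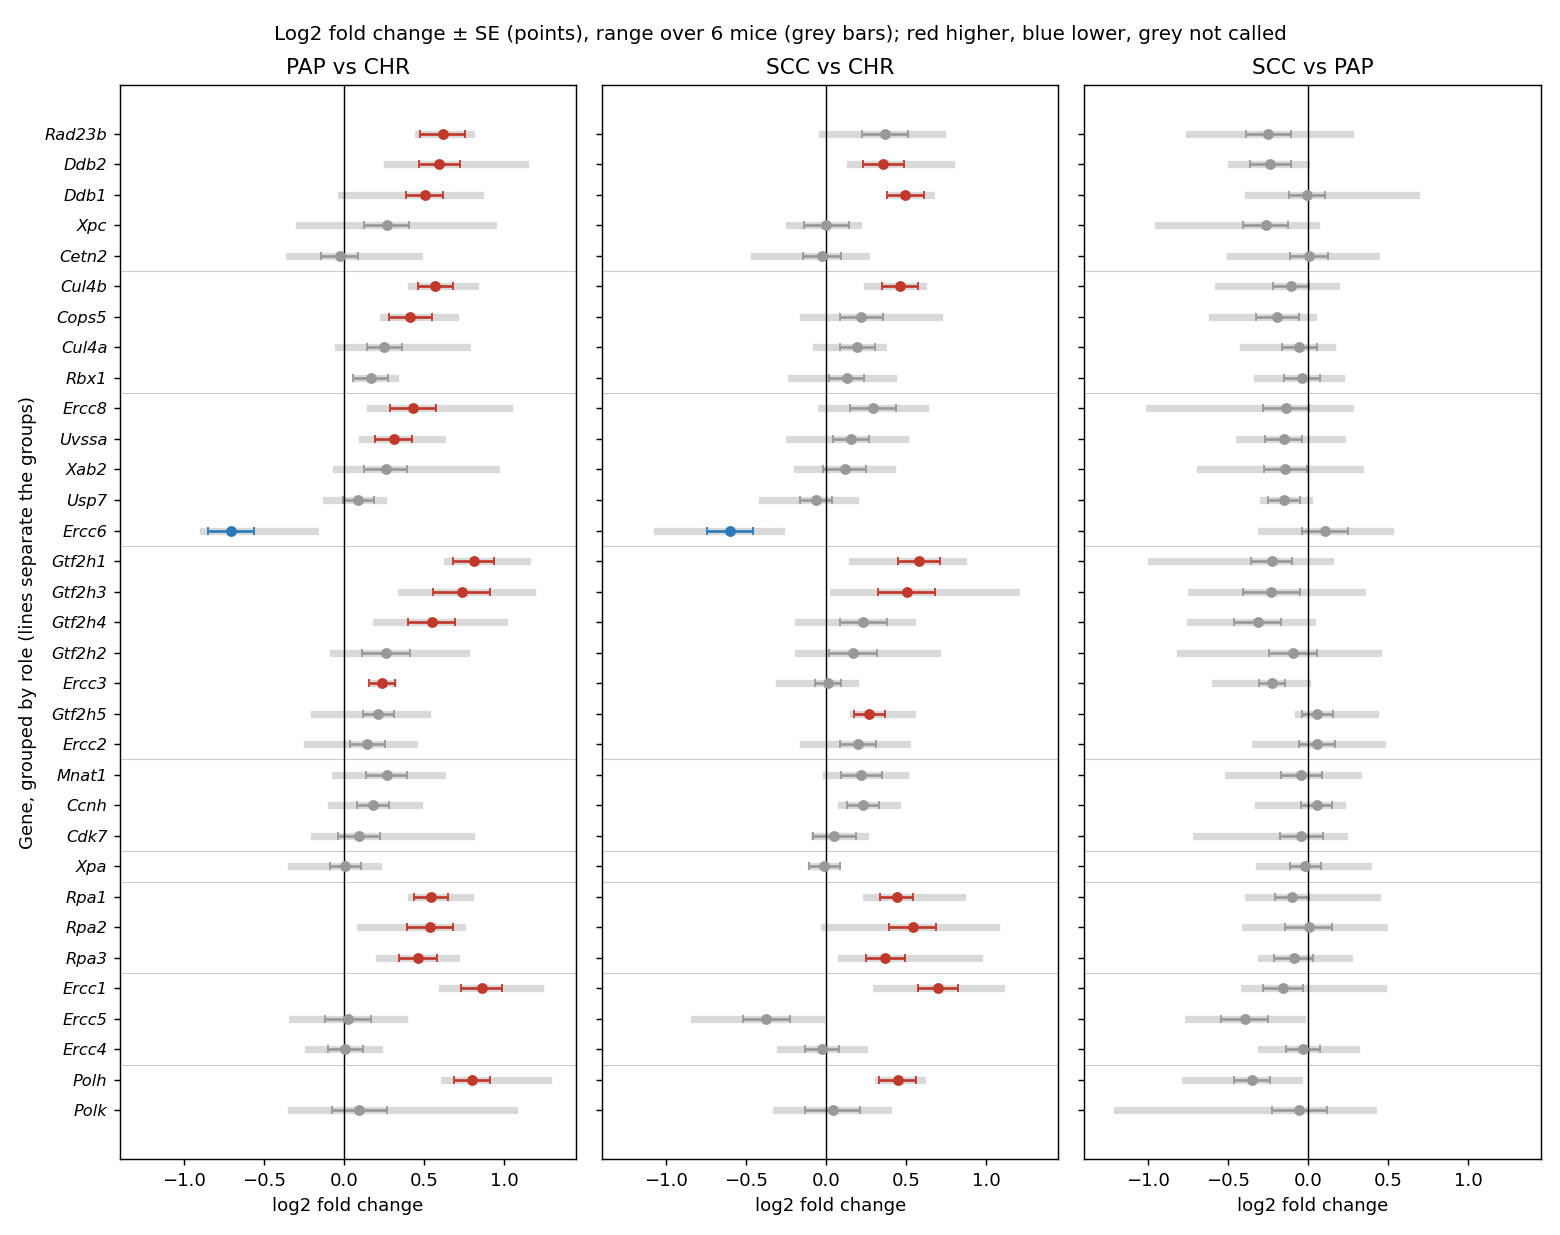
Log2 fold change of each NER gene on the log2(deposited value + 1) scale (x axis) in 3 panels, for PAP against CHR, SCC against CHR and SCC against PAP, with genes grouped by role (y axis). Points with bars are the limma estimate ± SE, grey bars the range over 6 mice, red and blue points members called higher and lower. In the PAP panel 16 points are red, from 0.24 (Ercc3) to 0.86 (Ercc1), and Ercc6 is the single blue one at -0.71; in SCC vs PAP no point is coloured.

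Among the 5 damage recognition genes, Rad23b, Ddb2 and Ddb1 rose in PAP, whereas Xpc and Cetn2 did not pass the test with the libraries scaled as deposited. Rad23b (chromosome 4, 55350043 to 55392237), which stabilises XPC, had 3312 to 4028 normalised reads in CHR (median 3599), 4641 to 7032 in PAP (median 5476) and 3701 to 6456 in SCC (median 4496). Normalised reads are whole reads recovered from the deposited values, divided by the size factor of the library. Every papilloma exceeded every CHR sample, while carcinomas overlapped CHR. The log2 fold change of Rad23b was 0.62 ± 0.14 (SE) in PAP vs CHR (limma adjusted p = 0.00159) and 0.37 ± 0.14 in SCC vs CHR (adjusted p = 0.0517, and 0.0403 with the mouse as replicate block). Rad23b was also called higher in SCC with another pseudocount (limma adjusted p = 0.0441), median centring (0.0292), quantile normalisation (0.035) and without mouse 2 (0.0383). The same held for limma-voom on recovered reads (0.0495) and on library totals (0.0264).

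Ddb2 (chromosome 2, 91211572 to 91236982), the photoproduct-binding subunit and a known p53 target, had 250 to 335 normalised reads in CHR (median 288), 369 to 654 in PAP (median 440) and 286 to 495 in SCC (median 371). PAP and CHR did not overlap, and every carcinoma was below the papilloma of its own mouse. Its log2 fold change was 0.59 ± 0.13 in PAP (limma adjusted p = 0.00089) and 0.36 ± 0.13 in SCC (adjusted p = 0.0363). That second call was lost when mouse 2, 3, 7, 8 or 10 was left out (adjusted p from 0.0595 to 0.0865). Exons of Acp2 on the opposite strand cover 23.8% of the exon length of Ddb2, and the strand setting of the counting was not given in the sources used here.

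Ddb1 (chromosome 19, 10605327 to 10629819), the adaptor between DDB2 and the ligase, was the most abundant member. It had 9934 to 10854 normalised reads in CHR (median 10148), 9899 to 18440 in PAP (median 15135) and 13202 to 15836 in SCC (median 14231). All carcinomas were above all CHR samples. In PAP, 5 of 6 samples were above CHR and the papilloma of mouse 3, at 9899, was below every one of them. The rise was 0.50 ± 0.11 in PAP (limma adjusted p = 0.00135, higher in 5 of 6 mice) and 0.49 ± 0.11 in SCC (adjusted p = 0.0027, higher in 6 of 6).

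Xpc, the initiator of global genome repair, ranged from 610 to 704 normalised reads in CHR, 567 to 1294 in PAP and 555 to 718 in SCC. Its log2 fold change was 0.27 ± 0.14 in PAP vs CHR (limma adjusted p = 0.122) and 0.00 ± 0.14 in SCC vs CHR (adjusted p = 0.999). With median centring and with quantile normalisation Xpc was called higher in PAP (limma adjusted p 0.0214 and 0.0398). Cetn2, the small calcium-binding partner of XPC, had log2 fold changes of -0.03 ± 0.12 in PAP and -0.03 ± 0.12 in SCC. Within a library, the log2 ratio of Xpc to Rad23b was lower in lesions than in CHR in 5 of 6 mice in both comparisons, by a mean of -0.34 ± 0.51 (SD, n = 6) in PAP and -0.37 ± 0.32 in SCC, a description without a test. Such ratios are of normalised reads, so they need not equal differences between the fold changes, which are on the log2(deposited value + 1) scale. The ratio of Ddb2 to Ddb1 changed by 0.20 ± 0.48 in PAP and -0.07 ± 0.29 in SCC, with 3 and 1 of 6 mice higher.

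Of the 4 ligase genes, Cul4b and Cops5 rose in PAP and only Cul4b was called in SCC. Cul4b (chromosome X, 38533274 to 38576196), a scaffold cullin, had 992 to 1224 normalised reads in CHR (median 1060), 1349 to 2220 in PAP (median 1595) and 1210 to 1645 in SCC (median 1555). The papillomas lay above CHR throughout, and the lowest carcinoma, that of mouse 7, fell within the range of CHR. The log2 fold change was 0.57 ± 0.11 in PAP (limma adjusted p = 0.000368) and 0.46 ± 0.11 in SCC (adjusted p = 0.00372). Its paralogue Cul4a changed by 0.25 ± 0.11 in PAP (adjusted p = 0.0629) and 0.19 ± 0.11 in SCC (adjusted p = 0.175).

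The log2 ratio of Cul4a to Cul4b fell from 0.86 in CHR to 0.51 in PAP and 0.57 in SCC, lower in 5 and 6 of 6 mice. Cops5, the catalytic subunit of the COP9 signalosome that switches cullin ligases off, rose by 0.41 ± 0.13 in PAP (limma adjusted p = 0.0161) and had 0.22 ± 0.13 in SCC (adjusted p = 0.217). Rbx1, the RING subunit, had 0.17 ± 0.11 and 0.13 ± 0.11, neither called. A processed pseudogene of Rbx1 is annotated, so its reads may be split between copies.

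The transcription-coupled genes did not move together. Ercc8 and Uvssa rose in PAP, Usp7 and Xab2 were not called, and Ercc6 fell in both lesions. Ercc6 (chromosome 14, 32513521 to 32580990) encodes CSB, the remodeller that recognises stalled polymerase. It had 1625 to 2618 normalised reads in CHR (median 1960), 899 to 1443 in PAP (median 1276) and 981 to 1532 in SCC (median 1335). Every lesion was below every CHR sample.

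The log2 fold change of Ercc6 was -0.71 ± 0.14 in PAP (limma adjusted p = 0.000562) and -0.60 ± 0.14 in SCC (adjusted p = 0.00353), lower in 6 of 6 mice in each, and no alternative ended either call. In CHR, Ercc6 varied more between mice than any other member, with an SD of 0.28 on the log2 scale. Muscle, adipocyte, sebaceous and immune markers, given above, fell in the same groups, and their part in the fall of Ercc6 was not tested.

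Ercc8, the CSA subunit of a DDB1-CUL4 ligase, ranged from 211 to 270 normalised reads in CHR, 275 to 573 in PAP and 247 to 425 in SCC. It rose by 0.43 ± 0.14 in PAP (limma adjusted p = 0.0172) with no overlap, and had 0.29 ± 0.14 in SCC (adjusted p = 0.119). In SCC, Ercc8 was called higher with median centring (limma adjusted p = 0.0482), quantile normalisation (0.0258) and without mouse 2 (0.0424). Uvssa, which brings TFIIH to the stalled polymerase, rose by 0.31 ± 0.11 in PAP (adjusted p = 0.0308), a call lost without mouse 3, 7 or 10 (adjusted p 0.127, 0.0502 and 0.101). Xab2 had 0.26 ± 0.13 in PAP and 0.12 ± 0.13 in SCC, and Usp7, the deubiquitinase that works with UVSSA, had 0.09 ± 0.10 and -0.06 ± 0.10, none of them called.

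**Figure D2:**
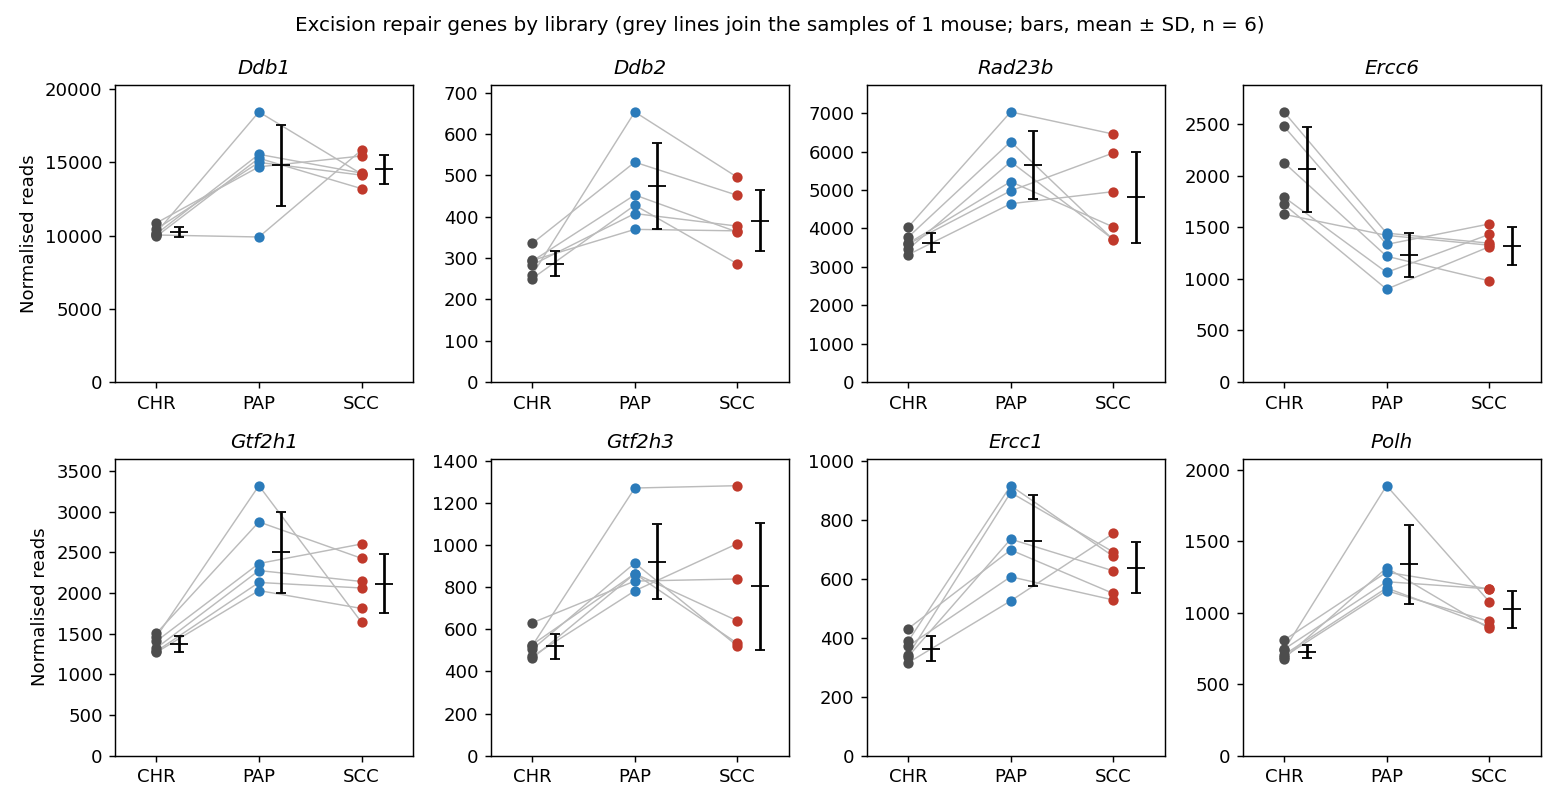
Normalised reads (y axis) of 8 NER genes in each library by group (x axis), with grey lines joining the samples of 1 mouse and black bars the mean ± SD (n = 6). Ercc6 lies at 1625 to 2618 in CHR and at 899 to 1532 in the lesions, while Ercc1, Gtf2h1 and Polh are above their CHR range in every lesion; the papilloma of mouse 3 is the low point of Ddb1 at 9899.

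TFIIH was uneven across its subunits. Of 7 core genes, Gtf2h1, Gtf2h3, Gtf2h4 and Ercc3 rose in PAP and Gtf2h1, Gtf2h3 and Gtf2h5 in SCC, and all 7 had a log2 fold change above 0 in both comparisons (median 0.26 and 0.23). Gtf2h1 (chromosome 7, 46796103 to 46823800), a scaffold subunit that contacts XPC and whose upstream window with 2 SP1 matches is printed above, had 1270 to 1503 normalised reads in CHR (median 1365), 2030 to 3320 in PAP (median 2320) and 1640 to 2603 in SCC (median 2102). Both lesions were above CHR without overlap. The log2 fold change was 0.81 ± 0.13 in PAP (limma adjusted p = 5.49e-05) and 0.58 ± 0.13 in SCC (adjusted p = 0.00208).

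Gtf2h3 (chromosome 5, 124579140 to 124597680), another core subunit, had 462 to 631 normalised reads in CHR (median 513), 783 to 1271 in PAP (median 864) and 521 to 1282 in SCC (median 739). PAP was separate from CHR, whereas SCC spread from the CHR range to the highest value of any library. It rose by 0.73 ± 0.18 in PAP (limma adjusted p = 0.00234) and by 0.50 ± 0.18 in SCC (adjusted p = 0.0348). The SCC call was lost without mouse 2, 3, 9 or 10 (adjusted p from 0.0594 to 0.145) and at 0.0528 when SCC and CHR alone were fitted.

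Gtf2h4 (chromosome 17, 35667730 to 35673739), which holds the XPB helicase in TFIIH, had 171 to 210 normalised reads in CHR (median 195), 222 to 492 in PAP (median 309) and 144 to 336 in SCC (median 245). PAP was above CHR throughout, and SCC extended to both sides of CHR. Its log2 fold change was 0.55 ± 0.15 in PAP (limma adjusted p = 0.00511) and 0.23 ± 0.15 in SCC (adjusted p = 0.235, and 0.0334 with quantile normalisation).

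The helicase genes had small fold changes. Ercc3 (XPB) had 779 to 843 normalised reads in CHR, 903 to 1027 in PAP and 644 to 910 in SCC, and its spread was the smallest of all members in CHR and in PAP (SD 0.04 and 0.07 on the log2 scale). It rose by 0.24 ± 0.08 in PAP (limma adjusted p = 0.0235), a call lost without mouse 3, 7 or 8 (adjusted p 0.0534, 0.0703 and 0.078), and had 0.01 ± 0.08 in SCC. Ercc2 (XPD) had 0.15 ± 0.11 and 0.20 ± 0.11, neither called, and opposite-strand exons of Klc3 and Gm26852 cover 17.8% and 24.6% of its exon length. Gtf2h5, the smallest subunit, had 0.21 ± 0.10 in PAP (adjusted p = 0.075) and rose by 0.27 ± 0.10 in SCC (adjusted p = 0.0385), which was lost without mouse 3, 7, 8 or 9 (adjusted p from 0.0775 to 0.152). Gtf2h2 had 0.26 ± 0.15 and 0.17 ± 0.15, not called.

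None of the 3 genes of the TFIIH-associated kinase was called with the libraries scaled as deposited and the 3 groups fitted together. Mnat1, its assembly factor, had 303 to 405 normalised reads in CHR (median 346), 328 to 603 in PAP (median 399) and 333 to 493 in SCC (median 436). The groups overlapped widely, and the log2 fold change was 0.26 ± 0.13 in PAP (limma adjusted p = 0.0912) and 0.22 ± 0.13 in SCC (adjusted p = 0.187). Ccnh, the cyclin, had 0.18 ± 0.10 and 0.23 ± 0.10 (limma adjusted p 0.138 and 0.076). Both were called higher in PAP with median centring (adjusted p 0.0178 for Mnat1 and 0.0138 for Ccnh) and quantile normalisation (0.0125 and 0.00432). Ccnh was also called in SCC under these (0.0252 and 0.0125) and with the compared groups alone (0.0449). Cdk7, the kinase, had 0.09 ± 0.13 in PAP and 0.05 ± 0.13 in SCC, and the PAP value was -0.05 without mouse 2.

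Xpa, the scaffold that verifies the lesion, was not called with the libraries scaled as deposited. It had 199 to 251 normalised reads in CHR (median 215), 186 to 301 in PAP (median 217) and 200 to 261 in SCC (median 213). The 3 groups covered much the same range. Log2 fold changes were 0.01 ± 0.10 in PAP (limma adjusted p = 0.949) and -0.01 ± 0.10 in SCC (adjusted p = 0.942), and with quantile normalisation Xpa was called higher in PAP (0.32, adjusted p = 0.0109).

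All 3 RPA genes, whose trimer covers single-stranded DNA in repair and in replication, rose in both lesions. Rpa1 (chromosome 11, 75298166 to 75348324) had 1211 to 1425 normalised reads in CHR (median 1353), 1835 to 2141 in PAP (median 1970) and 1617 to 2624 in SCC (median 1746). Neither lesion group overlapped CHR. The rise was 0.54 ± 0.10 in PAP (limma adjusted p = 0.000341) and 0.44 ± 0.10 in SCC (adjusted p = 0.00341).

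Rpa2 (chromosome 4, 132768332 to 132778752) had 359 to 417 normalised reads in CHR (median 400), 453 to 652 in PAP (median 628) and 414 to 917 in SCC (median 599). PAP was above CHR, and the lowest carcinoma fell inside the CHR range. It rose by 0.54 ± 0.15 in PAP (limma adjusted p = 0.00507) and by 0.54 ± 0.15 in SCC (adjusted p = 0.00787, higher in 5 of 6 mice). Rpa3 rose by 0.46 ± 0.12 in PAP (adjusted p = 0.00389) and by 0.37 ± 0.12 in SCC (adjusted p = 0.0227), the latter lost without mouse 3 or 9 (adjusted p 0.0839 and 0.0959). Proliferation markers, given above, rose in the same groups; their part in the RPA result was not tested.

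The nuclease genes diverged. Ercc1 (chromosome 7, 19344778 to 19356524), the non-catalytic partner that positions the XPF nuclease, had 315 to 431 normalised reads in CHR (median 356), 526 to 917 in PAP (median 717) and 529 to 755 in SCC (median 652). All 12 lesions were above all CHR samples, and the largest rise of any member was this one. The log2 fold change was 0.86 ± 0.13 in PAP (limma adjusted p = 2.33e-05) and 0.70 ± 0.13 in SCC (adjusted p = 0.000384), higher in 6 of 6 mice in each.

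Ercc4, which encodes XPF itself, ranged from 459 to 535 normalised reads in CHR, 431 to 602 in PAP and 366 to 587 in SCC. Its log2 fold change was 0.01 ± 0.11 in PAP and -0.03 ± 0.11 in SCC, not called. Within libraries the log2 ratio of Ercc1 to Ercc4, in normalised reads, went from -0.45 in CHR to 0.53 in PAP and 0.39 in SCC. It was higher in 6 of 6 mice in each lesion (0.98 ± 0.19 and 0.84 ± 0.39, SD, n = 6). Ercc5, the XPG nuclease, ranged from 940 to 1503 normalised reads in CHR, 914 to 1334 in PAP and 611 to 1147 in SCC. It changed by 0.02 ± 0.14 in PAP and by -0.37 ± 0.14 in SCC vs CHR (limma adjusted p = 0.0513, and 0.0309 with the replicate block), with the carcinoma lower than the skin in 6 of 6 mice. Ercc5 was also called lower in SCC vs CHR with another pseudocount (limma adjusted p = 0.0454), limma-voom on recovered reads (0.0486) and without mouse 2 (0.0448).

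Of the polymerases, Polh rose and Polk was not called. Polh (chromosome 17, 46171355 to 46202645), the translesion polymerase that bypasses ultraviolet dimers accurately and is lost in the variant form of xeroderma pigmentosum, had 680 to 808 normalised reads in CHR (median 723), 1156 to 1891 in PAP (median 1251) and 891 to 1168 in SCC (median 1009). Both lesions stood above CHR without overlap, and in 6 of 6 mice the carcinoma was below the papilloma. The log2 fold change was 0.80 ± 0.11 in PAP (limma adjusted p = 1.77e-05) and 0.45 ± 0.11 in SCC (adjusted p = 0.00557). In SCC vs PAP it was -0.35 ± 0.11, the lowest adjusted p among the members (0.0724, and 0.0497 with the replicate block).

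Polk, a polymerase used in repair synthesis, had 587 to 732 normalised reads in CHR, 513 to 1401 in PAP and 569 to 791 in SCC. Its spread was the widest of any member in PAP (SD 0.49 on the log2 scale), and its log2 fold change was 0.10 ± 0.17 in PAP and 0.04 ± 0.17 in SCC. The papilloma of mouse 2 set the sign in PAP, where 2 of 6 mice were higher and the value was -0.10 without it. The log2 ratio of Polk to Polh was lower in the lesion in 5 of 6 mice in PAP and 6 of 6 in SCC (mean -0.76 ± 0.65 and -0.44 ± 0.33, SD).

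Besides Polh, the members nearest to a difference between carcinoma and papilloma were Ercc5 (-0.40 ± 0.14, limma adjusted p = 0.106), Ercc3 (-0.23 ± 0.08, adjusted p = 0.11) and Gtf2h4 (-0.32 ± 0.15, adjusted p = 0.213). Ercc5 and Ercc3 were lower in the carcinoma of 6 of 6 mice and Gtf2h4 in 5 of 6. Over the members, the median within-mouse difference between carcinoma and papilloma ran from -0.27 in mouse 2 to 0.04 in mouse 9.

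Early and late steps of the pathway were set side by side without a test of their difference. Damage recognition with its ligase had 5 of 9 genes higher in PAP (median log2 fold change 0.41) and 3 of 9 in SCC (median 0.22). TFIIH, the nucleases and RPA had 8 of 16 higher in PAP (median 0.26) and 7 of 16 in SCC (median 0.23). As shares these were 55.6% and 50% in PAP, where 22.8% of all genes were higher, and 33.3% and 43.8% in SCC, where 15.1% were. Neither group held a gene called lower, apart from Ercc5 in SCC under the alternatives given above. The 5 transcription-coupled genes, Ercc6 among them, were in neither group. Of these, 2 rose and 1 fell in PAP, and 0 rose and 1 fell in SCC, where 28.7% and 21.4% of all genes were lower. RPA was the only role group in which every gene rose in both comparisons, and the TFIIH kinase and Xpa had a call in either only under the alternatives given above.

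**Figure D3:**
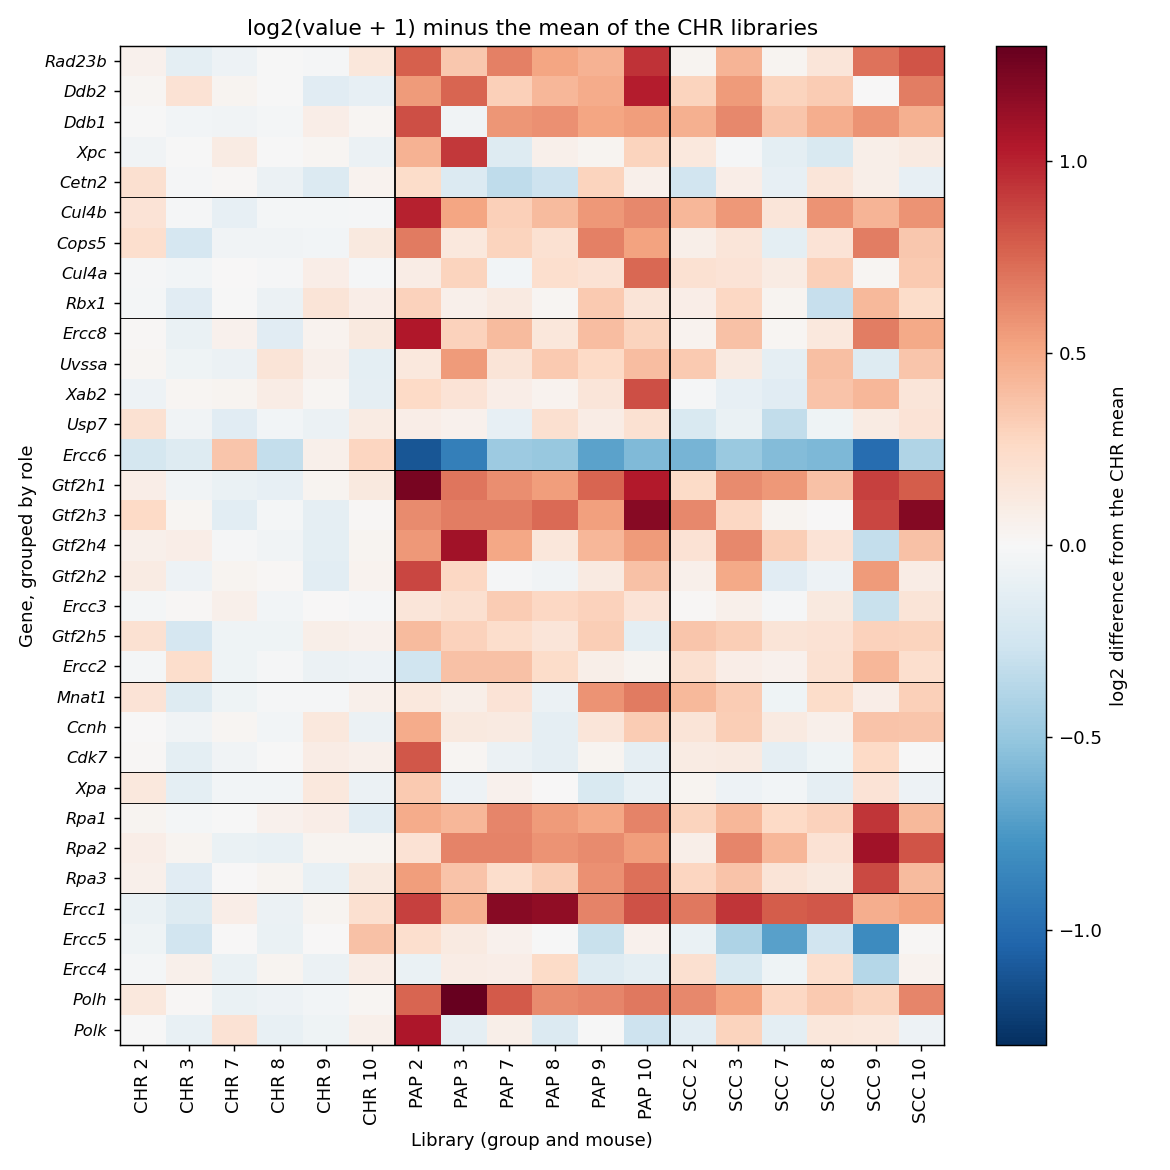
Log2(deposited value + 1) of the 33 NER genes (y axis, grouped by role) in each of the 18 libraries (x axis), minus the mean of the CHR libraries; red is above and blue below that mean. The row of Ercc6 is blue in all 12 lesions, the row of Ercc1 red in all 12, and single lesions stand out, such as PAP 2 for Ercc8, Cdk7 and Polk.

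Levels were compared between genes only after division by exon length. This length covers the merged exons of all annotated transcripts of a gene and can exceed that of its mRNA, so the order depends on the annotation. Ddb1 was highest in every group, with 1601 ± 52.7 (SD, n = 6) normalised reads per kb in CHR, 2310 ± 431 in PAP and 2264 ± 150 in SCC, and Ercc8 was lowest, with 31.7 ± 2.80, 47.0 ± 14.0 and 41.4 ± 9.44. Ercc6 stood at rank 15 of 33 per kb in CHR (160 ± 32.4) and at rank 29 in PAP (95.7 ± 16.7) and 28 in SCC (103 ± 14.5). Ercc1 moved the other way, from rank 22 in CHR (117 ± 13.5) to 13 in PAP (235 ± 49.7) and 15 in SCC (205 ± 27.9). In CHR, Usp7 (745 ± 67.8), Rad23b (633 ± 43.5) and Gtf2h1 (461 ± 32.5) followed Ddb1 in that order. Neighbours further down the order, such as Xpc (118 ± 5.98), Xpa (118 ± 11.8) and Ercc1 in CHR, differed by less than their SD.

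**Figure D4:**
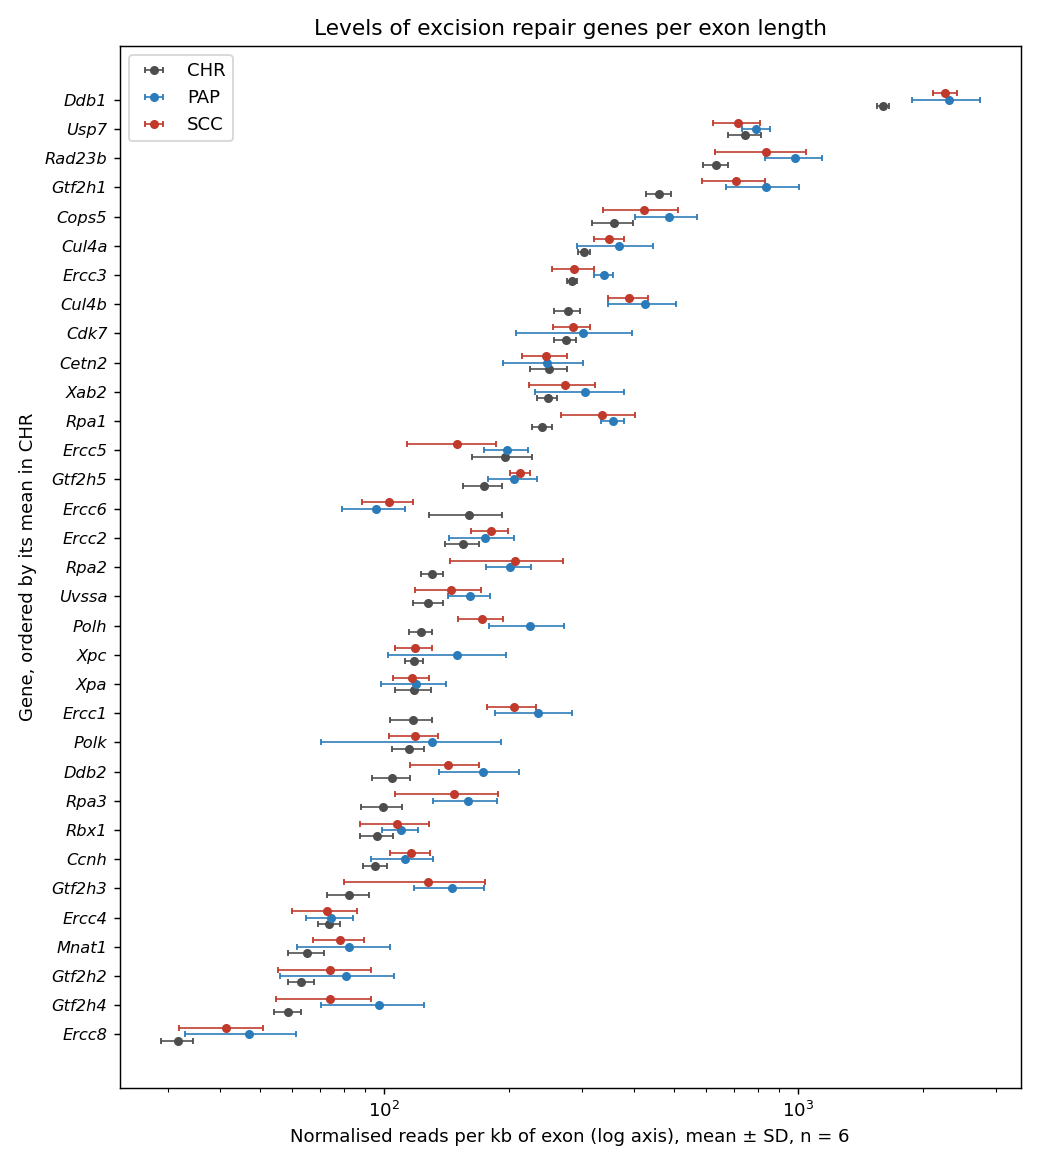
Normalised reads per kb of exon (x axis, log scale) of the 33 NER genes, ordered by their mean in CHR (y axis), as mean ± SD (n = 6) in CHR, PAP and SCC. Ddb1 is highest at 1601 to 2310 and Ercc8 lowest at 31.7 to 47.0, and Ercc6 is the gene whose lesion values (95.7 and 103) lie below its CHR value (160) with separate bars.

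Between mice, the median SD on the log2 scale, with expression level not matched, was 0.10 over the members in CHR (0.17 over all genes), 0.25 in PAP (0.30) and 0.21 in SCC (0.31). Extremes gathered in a few libraries. They are set beside shares of the genes with a group mean of at least 50 normalised reads. The papilloma of mouse 2 held the highest PAP value of 12 members, where 24.0% of such genes peaked. The carcinoma of mouse 9 held the highest SCC value of 13, where 24.5% of such genes peaked. The carcinoma of mouse 7 had the lowest SCC value of 13 members and the highest of none, while 18.4% of such genes were lowest and 18.8% peaked there. Without the papilloma of mouse 2, the count of members called in PAP vs CHR was 18 (50.5% of all genes were called), and that in SCC vs PAP was 0 (7.66% of all genes).

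Other genes of the pathway that are not members were counted from a list of 45, all present in the table. In PAP vs CHR 23 rose and 1 fell, with a median log2 fold change of 0.36, and in SCC vs CHR 19 rose and 1 fell, with a median of 0.29. Over all genes, 22.8% were higher and 28.7% lower in PAP (51.5% called, median 0.00). In SCC 15.1% of all genes were higher and 21.4% lower (36.5% called, median -0.02). Gap filling and ligation genes, which serve replication as well, gave most of these, with 12 of 17 higher in PAP (median 0.75) and 10 of 17 in SCC (median 0.60). Of the 13 further recognition and chromatin genes, 1 rose and 1 fell in each comparison. The COP9 signalosome had 6 of 8 higher in PAP and 5 of 8 in SCC, and the transcription-coupled list 4 of 7 and 3 of 7.

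Pole, the catalytic subunit of the leading-strand polymerase, rose by 1.35 ± 0.14 in PAP (limma adjusted p = 8.12e-07) and 1.20 ± 0.14 in SCC (adjusted p = 9.60e-06). Lig1, the replicative ligase, rose by 0.999 ± 0.17 and 0.94 ± 0.17, and Rfc4, a clamp loader subunit, by 0.98 ± 0.16 and 0.82 ± 0.16. The gene that fell was Pias1, a SUMO ligase, at -0.26 ± 0.10 in PAP (limma adjusted p = 0.0373) and -0.33 ± 0.10 in SCC (adjusted p = 0.0172). The PAP call was lost with the replicate block (adjusted p = 0.063), under both rescalings of the libraries (0.0962 and 0.321) and without mouse 2, 3, 7, 8 or 10 (0.0745 to 0.109), and the SCC call with median centring (0.0653) and without mouse 2 (0.0809). In SCC vs PAP the single call of the list was Hmgn1, a nucleosome-binding protein, named after its values were seen, with a mean of 1199 ± 159 normalised reads in PAP and 770.0 ± 183 in SCC (-0.61 ± 0.14, limma adjusted p = 0.0245, lower in 6 of 6 mice). It was not called without mouse 3, 7 or 8 (adjusted p from 0.121 to 0.189), with limma-voom (0.101) or with the compared groups alone (0.123), settings in which 0 of all genes were called and its log2 fold change was -0.57 to -0.66.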

How the data were processed

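mRNA of CHR, PAP and SCC from 6 mice (18 libraries) was analysed. According to the study's methods and the submitters' processing notes, the authors aligned reads to mm10 with MOSAIK, counted them per gene with HTSeq, and stabilised the variance with the transformation that DESeq2 provides. As deposited, each value is a score on the linear scale of this transformation, in which 0 reads appear as 39. The methods also describe a later correction for experimental batches, in which a gene's batch medians were brought to a common value. The sample titles name no batch, and whether the deposited mouse values carry this correction was not tested. Aligner and counter versions, annotation release and strand setting are not given in the sources used here. No column was left unmapped (0 columns).

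Because the values are not raw counts, they were tested on log2(value + 1) with limma (version 3.58.1, R 4.3.3), fitting the 3 group means to all 18 libraries together, without covariates, and with p-values adjusted by Benjamini-Hochberg over 14521 named genes (threshold 0.05). Fold changes on this scale understate those of weakly expressed genes. The moderated test is two-sided. The scripts were tested on simulated data. Entries named by a number (21 of 14542, at most 0.236% of the deposited total in a library) were left out. The transformation was inverted (zero level 39.12, size factors 0.835 to 1.18), and 98.1% of values came out as whole reads, including all values under 100. The zero level and size factors were chosen so that low values came out as whole reads, so this share is no independent check. Depth sets the precision of low genes, and no counting intervals are given since replicates carry the error. Levels per kb use exon lengths of GENCODE M21 (GRCm38), which also gave coordinates, with upstream windows from RefSeq (GRCm38.p6).

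Libraries with the same mouse number come from the same animal, so the numbers pair the samples. The correlation of same-mouse deviations from the group means ran from -0.245 to 0.507. The mouse as a replicate block was an alternative, as were another pseudocount, a filter on low values, limma-voom on recovered reads, median centring, quantile normalisation, a fit of the compared groups alone and leaving out each mouse. limma-voom with library totals and leaving out the papilloma of mouse 2 were chosen after seeing the data.

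Members, role groups, the 45 other genes, markers and motifs were chosen with earlier results of these data known. Lowest, median and highest values are given for members with an adjusted p under 0.05 and an absolute log2 fold change of at least 0.5 in any comparison, and for the member with the largest change in each role group. Of the other pathway genes, the 3 with the largest rise and up to 3 with the largest fall among those called in each comparison with CHR are named. Partner ratios are of normalised reads, not on the scale of the fold changes, and are descriptions without a test.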

Additional observations from a re-analysis of the deposited data

Results flagged for a closer look

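For each member and group, the highest or lowest of the 6 libraries was set against the other 5 with Dixon's criterion. It picked out 14 of 99 groups, where the nominal rate is about 1 in 20 for independent, normal values. The share over all genes was not computed and the members share their libraries, so this count is not a result about the members. In CHR these were Ercc2 in mouse 3 (767.2 normalised reads, others 608 to 638), Cul4a in mouse 9 (2071, others 1888 to 1946) and Cul4b in mouse 2 (1224, others 992 to 1064).

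The papilloma of mouse 2 stood apart in 4 members. It was highest for Ercc8 (573.2 normalised reads, others 275 to 345), Cdk7 (1828, others 930 to 1043) and Polk (1401, others 513 to 674), and lowest for Rpa2 (453.5, others 603 to 652). In the papilloma of mouse 3, Ddb1 was low (9899, others 14691 to 18440) and Polh high (1891, others 1156 to 1315). The papilloma of mouse 10 was highest for Gtf2h3 (1271, others 783 to 914) and Xab2 (2130, others 1198 to 1398).

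Among carcinomas, that of mouse 9 was lowest for Ercc6 (980.7 normalised reads, others 1310 to 1532) and highest for Rpa1 (2624, others 1617 to 1839). The carcinoma of mouse 7 was lowest for Cul4b (1210, others 1477 to 1645).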

How the results depend on the processing

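The 17 members called in PAP vs CHR became 26 with median centring and 24 with quantile normalisation, and 15 to 18 otherwise. Of all genes, 56.7% and 57.5% were called under these scalings and 44.2% to 54.5% otherwise, against 51.5% as reported. These 2 scalings shift the median of all genes in PAP vs CHR from 0.00 to 0.14 and 0.16 on the log2 scale, and the share of higher calls over all genes from 44.3% to 57.5% and 62.4% (in SCC vs CHR from 41.4% to 52.4% and 57.4%). The member medians under them were 0.40 and 0.39. In PAP vs CHR both scalings added calls of Xpc, Rbx1, Gtf2h2, Gtf2h5, Ccnh and Mnat1. Median centring alone added Cul4a, Ercc2 and Xab2, and quantile normalisation alone added Xpa. Cul4a was also called with the other pseudocount (limma adjusted p = 0.0474), without mouse 7 (0.0495) and without the papilloma of mouse 2 (0.0487). Gtf2h5 was also called without mouse 10 (0.0225). The 12 members called in SCC vs CHR became 8 to 13 when a mouse was left out (8 without mouse 3) and 12 to 16 otherwise. Of all genes, 26.9% to 34.8% were called when a mouse was left out and 35.9% to 42.0% otherwise, against 36.5% as reported.

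In SCC vs PAP the replicate block gave 1 call (Polh, lower). Leaving out a mouse gave 0 to 2, the 2 without mouse 10 being Polh (adjusted p = 0.0443) and Ercc5 (adjusted p = 0.0364). Beyond Polh here and Rad23b and Ercc5 in SCC vs CHR, the block changed no call of a member; of the other named genes it changed that of Pias1.

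The 24 other pathway genes called in PAP vs CHR became 33 with median centring, 31 with quantile normalisation and 19 (without mouse 8) to 26 otherwise. Of all genes, 56.7%, 57.5% and 44.2% to 54.5% were called in these fits. The 20 called in SCC vs CHR became 13 (without mouse 9) to 18 when a mouse was left out, fits that called 26.9% to 34.8% of all genes. Otherwise they became 20 to 27, the 27 with quantile normalisation, in fits that called 35.9% to 42.0% of all genes. The single one in SCC vs PAP became 0 with limma-voom, with limma-voom on library totals and with the compared groups alone, and 0 to 1 when a mouse was left out. No called result reversed its direction. The cause of these changes was not tested. Of the recomputed counts and partner ratios, 183 stayed within a wide margin of the reported value, in which 8 members against 12 still passed. Beyond that margin, 3 counts were above the reported value and 7 below it, all given here. For single named genes, 1593 recomputed values stayed on the same side of the threshold, 41 gained a call and 38 lost it. Depth of 15.4 M reads or more left no member near 0 reads, the lowest value being 94.7 normalised reads (Rpa3 in CHR).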
